A study of Homo sapiens with 4 samples.

Results

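Collagen chain genes were taken as all genes whose symbol is COL, a number, A and a number, such as COL1A1. Of 18417 genes measured, 43 met this rule. They comprised 11 fibrillar chains, 10 fibril-associated chains with interrupted helices (FACIT), 6 basement membrane chains and 5 beaded filament chains. The remainder were 3 hexagonal network, 3 transmembrane and 2 multiplexin chains, 1 anchoring fibril chain and 2 others. COL17A1 was not analysed here. RNA was profiled on 4 single-colour arrays, with 1 array per line and treatment. The groups were U2-OS with OGE, U2-OS control, HOS with OGE and HOS control. OGE was given at 600 μg/mL, or 0 μg/mL in the controls, for 24 h. Both are established human osteosarcoma lines grown in DMEM with serum and antibiotics. The labels do not spell out OGE, and nothing in them says how many cultures stand behind an array.

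Collagens are the main structural proteins of bone and connective tissue. Their chains coil around each other into helical molecules, each collagen type having its own set of chains, so a molecule may need the products of several genes. Fibrillar types I, III, V and XI build cross-striated fibrils, and those that osteoblasts lay down before bone mineralises are mainly of type I. FACIT collagens sit on the surface of such fibrils, type IV forms the sheet of basement membranes and type VI forms beaded filaments around cells. Osteosarcoma is defined by tumour cells that make bone matrix, in which type I collagen is the chief protein.

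Values are on the log2 scale after RMA, so a difference of 1 is 2-fold. Array medians over all probe sets lay between 3.58 and 3.62. Of the 43 collagen genes, 30 were at or above the array median on all 4 arrays, 32 on at least 1, and 11 on none. The table holds no detection calls, so a level near or below the median cannot be told apart from background signal. Levels of different genes come from different probes and were not ranked against each other. The osteoblast-lineage markers RUNX2 and SP7 were above the median on all 4 arrays, with RUNX2 between 3.94 and 4.60. ALPL was above it on 3 arrays, whereas IBSP and SPP1 were below it on every array. With OGE, SPARC, a collagen-binding matrix protein of this list, changed by -1.40 in U2-OS, a call by size, and by -0.73 in HOS. In U2-OS and HOS in turn, RUNX2 changed by -0.59 and -0.60, SPP1 by 0.74 and -0.01, and ALPL by 0.66 and 0.00. SP7 changed by 0.10 and 0.38, and IBSP by -0.05 and -0.17. Of this list 6 genes reached the median on at least 1 array, COL1A1 and COL1A2 among them. Their median change was -0.335 in U2-OS and -0.665 in HOS. Of the 4 mesenchymal markers none was called by size, but their median change was -0.66 in U2-OS and -0.01 in HOS. VIM, THY1 and PDGFRB changed by -0.69, -0.68 and -0.63 in U2-OS and by 0.00, -0.01 and -0.20 in HOS, and S100A4 by 0.11 in U2-OS and 0.81 in HOS. No epithelial or chondrocyte marker was called with OGE, with median changes of 0.04 and 0.07 in U2-OS and -0.17 and -0.15 in HOS. Of 6 epithelial markers 5 reached the median on at least 1 array, among them the keratins KRT8 and KRT18 on all 4, and of 5 chondrocyte markers 3 did. All 5 endothelial markers were below the median on every array. Of 5 immune markers measured, CD68, a lysosomal protein, was above it, and was higher with OGE by 1.35 in U2-OS and 1.05 in HOS. The mean log2 level of these 5 was 2.73 in U2-OS with OGE and 2.30 in U2-OS control, and 2.73 in HOS with OGE and 2.52 in HOS control. The part of all these markers in the results below was not tested.

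**Figure D1:**
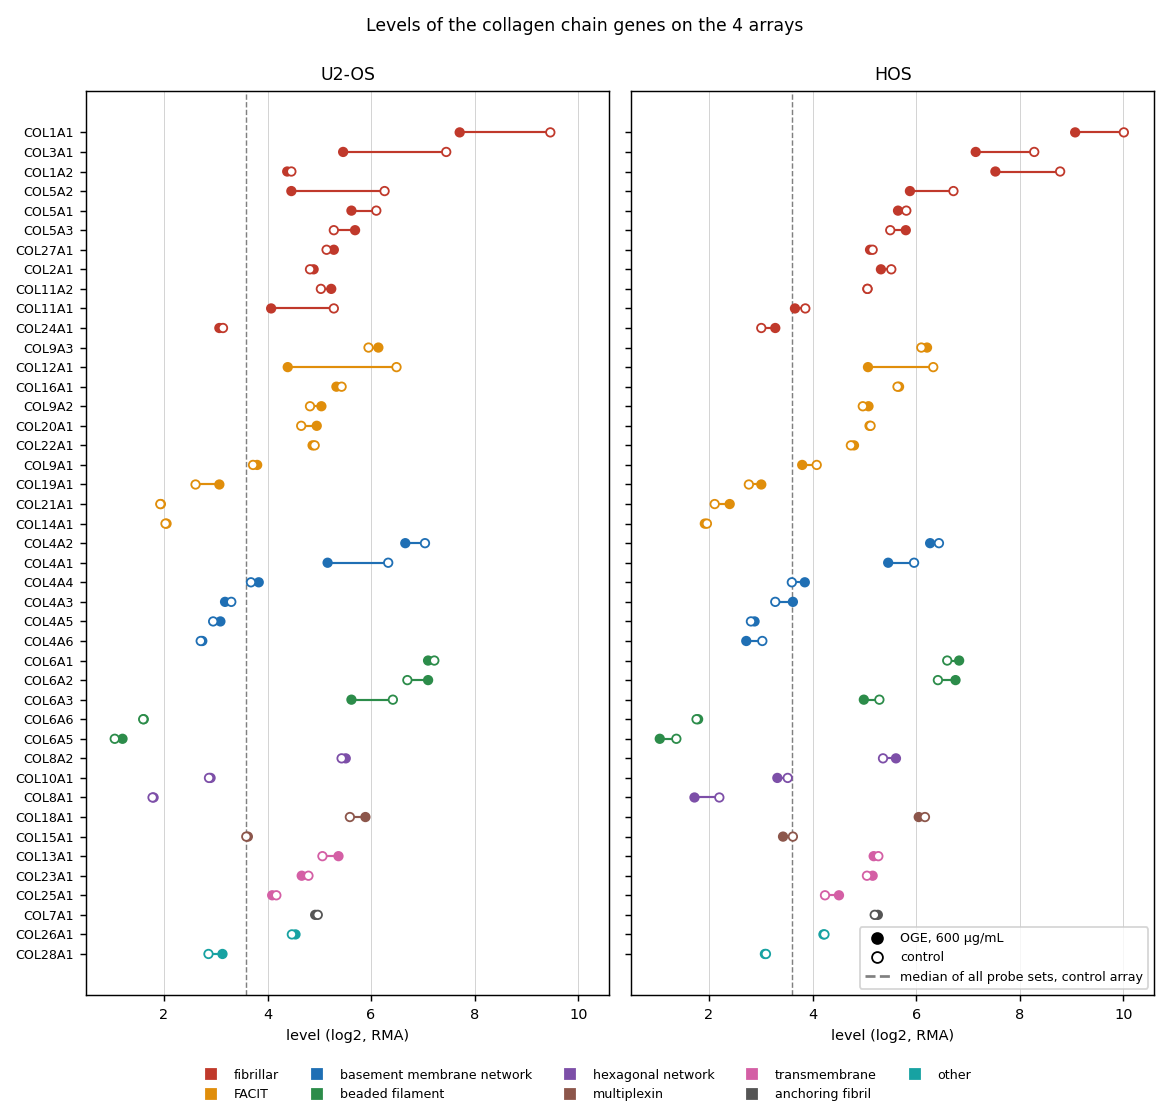
Level (log2, RMA) of each of the 43 collagen chain genes, with U2-OS in the left panel and HOS in the right, filled points for OGE, open points for control and colours for the class. COL1A1 runs from 7.71 to 10.01, COL1A2 sits near 4.4 in U2-OS and above 7.5 in HOS, and most other genes have filled and open points that nearly coincide.

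With OGE, the fibrillar chain COL3A1 and the FACIT chain COL12A1 were at least 2-fold lower in both lines. COL1A1, COL5A2, COL4A1 and COL11A1 were so in U2-OS and COL1A2 in HOS, while most other collagens were within 0.5 of their control. A gene was called by size when its values on the 2 arrays differed by at least 1 and the larger of them reached the median of its array. In U2-OS, 6 of 31 collagen genes at that floor were lower, or 19.4%, and the same rule called 7.88% of all genes lower. In HOS, 3 of 32 were lower, or 9.38%, against 2.18% of all genes. COL3A1 and COL12A1 were lower in both lines, 2 of 31 genes or 6.45%, against 1.09% of all genes. No collagen gene was called higher, where 2.94% of all genes were in U2-OS, 1.70% in HOS and 0.768% in both. With 1 array per group these are differences between arrays and have no replicate check. The arrays measured bulk RNA, so fewer cells with a transcript and less of it per cell cannot be told apart.

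The lower levels were those of few genes, not of the family as a whole. Over the 28 collagen genes whose mean level was at or above the median of all genes, the median change was -0.07 in U2-OS and -0.04 in HOS. Over all 9209 genes at that level it was -0.01 in U2-OS and 0.02 in HOS. Of the 28, 16 had a negative and 12 a positive change in U2-OS, and 16 a negative and 11 a positive one in HOS, with 1 at 0. Of all genes at that level, 50.5% had a negative change in U2-OS and 47.0% in HOS. In U2-OS 7 of the 28 collagen genes were lower by at least 0.5, where 21.8% of all genes at that level were, and in HOS 6 were, where 13.2% were. None was higher by that much, where 13.4% of all genes in U2-OS and 11.0% in HOS were.

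Type I collagen is a heterotrimer of the COL1A1 and COL1A2 products and the bulk of bone matrix protein. COL1A1 was at 7.71 with OGE and 9.46 without it in U2-OS, and at 9.07 with OGE and 10.01 without it in HOS. The change was -1.75 in U2-OS, past the size threshold, and -0.94 in HOS, just short of it. Its partner COL1A2 was at 4.38 with OGE and 4.46 without it in U2-OS, and at 7.53 with OGE and 8.78 without it in HOS. COL1A2 thus changed by -1.25 in HOS and by -0.08 in U2-OS, where its level was low in both states. By size, COL1A1 was called lower in U2-OS and COL1A2 in HOS.

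COL3A1 encodes the single chain of type III collagen, which mixes with type I in fibrils of soft connective tissue. It was at 5.46 with OGE and 7.45 without it in U2-OS, and at 7.15 with OGE and 8.28 without it in HOS. These are changes of -1.99 in U2-OS and -1.13 in HOS, both past the size threshold. The OGE arrays of both lines lay below both control arrays. Ranked by the smaller of its 2 changes, COL3A1 was 56th and COL12A1 26th of the 118 genes lower by size in both lines.

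Type V collagen is a minor fibril component that sets fibril diameter, and its chains differed. COL5A2 was at 4.46 with OGE and 6.26 without it in U2-OS, and at 5.88 with OGE and 6.72 without it in HOS, changes of -1.80 and -0.84. COL5A1, which forms the common type V molecule with COL5A2, changed by -0.48 in U2-OS and -0.16 in HOS. COL5A3, a chain of less common type V molecules, had changes of 0.41 and 0.30. COL5A2 and COL3A1 are neighbours on chromosome 2 among protein-coding genes. COL3A1 was called lower in both lines and COL5A2 in U2-OS. Of other neighbouring collagen genes, COL4A1 was called in U2-OS without COL4A2, and COL6A1 and COL6A2 were called in neither line. The part of gene position in these changes was not tested.

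COL11A1, a chain of the type XI collagen that is best known from cartilage fibrils, was at 4.07 with OGE and 5.28 without it in U2-OS. In HOS it was at 3.66 with OGE and 3.86 without it, close to the array median of 3.6. The changes were -1.21 in U2-OS and -0.20 in HOS. The type XI partner COL11A2 changed by 0.20 and 0.00, and COL2A1, the cartilage collagen, by 0.07 and -0.20. Other COL11A2 probe sets, of lower level and not used, changed by -0.09 in U2-OS and -0.33 in HOS. COL27A1, another fibrillar chain, changed by 0.14 and -0.05, and COL24A1 was below the median on every array.

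Among the FACIT collagens, COL12A1 was the only one called by size. COL12A1 binds type I fibrils in tendon, periosteum and other dense tissue. It was at 4.39 with OGE and 6.49 without it in U2-OS, and at 5.07 with OGE and 6.33 without it in HOS, changes of -2.10 and -1.26. These were the most negative changes of any collagen gene in each line, though in HOS COL1A2 was nearly equal at -1.25. The other 6 FACIT genes at or above the median on at least 1 array had small changes. COL9A1, COL9A2 and COL9A3, the chains of the cartilage collagen type IX, changed by 0.08, 0.22 and 0.19 in U2-OS and by -0.28, 0.11 and 0.11 in HOS. COL16A1 changed by -0.10 and 0.03, COL20A1 by 0.30 and -0.02, and COL22A1 by -0.04 and 0.06.

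In the basement membrane class, COL4A1, a chain of the widespread type IV molecule, was called lower in U2-OS. COL4A1 was at 5.16 with OGE and 6.33 without it in U2-OS, and at 5.46 with OGE and 5.96 without it in HOS, changes of -1.17 and -0.50. COL4A2 was at 6.66 with OGE and 7.04 without it in U2-OS, and at 6.27 with OGE and 6.44 without it in HOS, changes of -0.38 and -0.17. COL4A2, the partner chain, was called in neither line. The kidney-type chains COL4A3 and COL4A4 lay near the median and changed by -0.12 and 0.15 in U2-OS and by 0.34 and 0.25 in HOS. COL4A5 and COL4A6, the X-linked chains, were below the median on every array.

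No type VI chain was called by size in either line. COL6A1 was at 7.10 with OGE and 7.22 without it in U2-OS, and at 6.83 with OGE and 6.60 without it in HOS. COL6A2 was at 7.10 with OGE and 6.70 without it in U2-OS, and at 6.76 with OGE and 6.42 without it in HOS. The changes were thus -0.12 and 0.23 for COL6A1 and 0.40 and 0.34 for COL6A2. COL6A3, the largest chain of the same molecule, was at 5.62 with OGE and 6.42 without it in U2-OS, and at 4.99 with OGE and 5.29 without it in HOS. Its changes, -0.80 and -0.30, were negative in both lines and below the size threshold.

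The remaining classes held no gene called by size. COL8A2, a network chain, changed by 0.08 in U2-OS and 0.25 in HOS. COL18A1, the basement membrane multiplexin from which endostatin is cut, changed by 0.30 and -0.12, and the related COL15A1 by 0.03 and -0.19. The transmembrane chains COL13A1, COL23A1 and COL25A1 changed by 0.31, -0.13 and -0.08 in U2-OS and by -0.09, 0.11 and 0.27 in HOS. COL7A1, which builds the anchoring fibrils of skin, changed by -0.05 and 0.06, and COL26A1 by 0.07 and -0.02. The 11 genes below the median on every array lay between 1.05 and 3.52, and their changes ran from -0.48 to 0.46. They included COL10A1, the collagen of hypertrophic cartilage, at 2.90 with OGE and 2.87 without it in U2-OS, and at 3.32 with OGE and 3.52 without it in HOS.

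**Figure D2:**
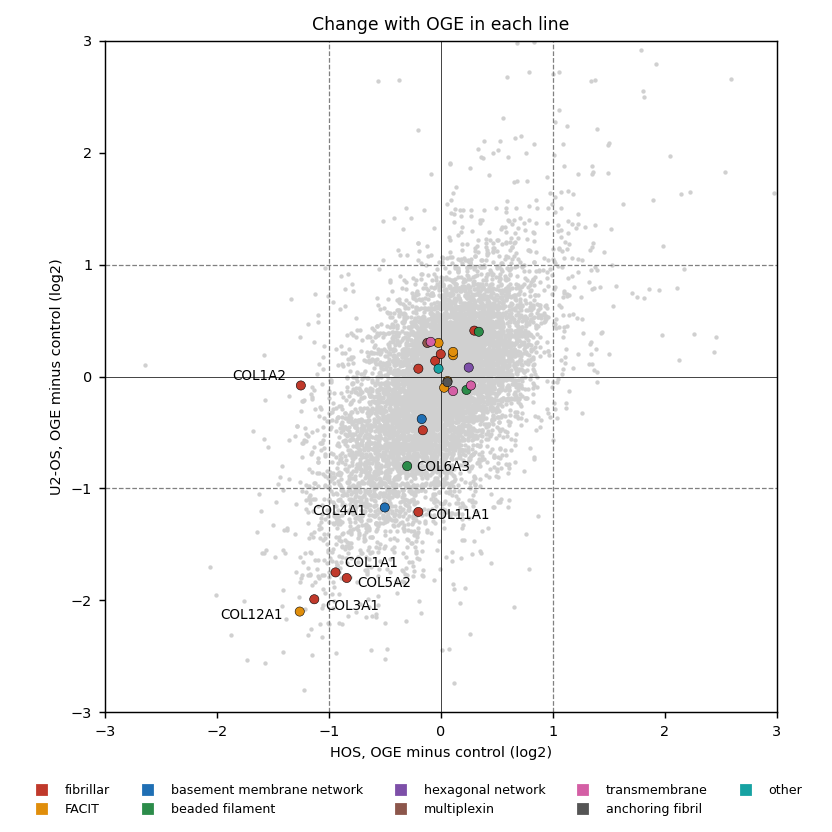
Change with OGE (log2) in HOS on the horizontal axis and in U2-OS on the vertical axis, for the 9209 genes at or above the median mean level in grey and the 28 collagen genes among them in the colour of their class; dashed lines mark 2-fold and 14 genes lie outside the axes. COL12A1, COL3A1, COL1A1 and COL5A2 lie together at the lower left, COL1A2 lies at -1.25 in HOS and near 0 in U2-OS, and most other collagens lie within 0.5 of the origin.

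Between the lines the changes of the 28 collagen genes correlated at r = 0.787, and those of all 9209 genes at that level at r = 0.574. The 21 of the 28 genes called in neither line correlated at r = 0.492. That set was cut on the same changes, which narrows their range, and no such value was computed over all genes. All these r values are across genes measured on the same 4 arrays, and genes are not independent replicates.

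Both lines were then used as repeats of the OGE contrast in limma, fitted to all 18417 genes with line as the other term. No collagen gene passed an adjusted p of 0.05, as was the case for all genes, with 0.00% called. COL12A1 had a mean change of -1.68 ± 0.26 (SE) and COL3A1 of -1.56 ± 0.26, each with an adjusted p of 0.228 in limma. COL5A2 had a mean change of -1.32 ± 0.28 with an adjusted p of 0.237 in limma. At an unadjusted p under 0.05, 6 collagen genes were lower, namely COL12A1, COL1A1, COL3A1, COL4A1, COL5A2 and COL6A3, and 0 were higher. Of all genes, 8.52% were lower and 5.67% higher at that level. Each of the 6 had a negative change in both lines, which a low p favours, since the residual is the difference between these changes. The fit has 1 residual degree of freedom before moderation. After quantile normalization, limma called COL12A1 and COL3A1 lower and 1.43% of all genes in either direction.

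Longer genes had more negative changes with OGE in both lines, and many collagen genes are long. Genes at that level were placed in 4 equal bins by RefSeq span on GRCh38.p14, and the bin of the longest had a median change of -0.29 in U2-OS and -0.13 in HOS. The 14 collagen genes in that bin had medians of -0.26 and -0.14. It held COL12A1, COL5A2, COL4A1 and COL11A1, but also COL5A1, COL4A2 and COL6A3, which were not called by size. The rest of that bin were COL13A1, COL18A1, COL27A1, COL26A1, COL22A1, COL25A1 and COL23A1. In that order they changed by 0.31, 0.30, 0.14, 0.07, -0.04, -0.08 and -0.13 in U2-OS. In HOS they changed by -0.09, -0.12, -0.05, -0.02, 0.06, 0.27 and 0.11. COL1A1 lay in the second bin, where all genes had medians of 0.05 and 0.07, and COL3A1 and COL1A2 in the third, with medians of -0.13 and -0.01. The part of span in the collagen changes was not tested.

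Promoter windows of 250 bases before and 50 after the start site, from RefSeq on GRCh38.p14, matched 31 of the 43 genes, which have 43 windows, since some have several starts. Of the 7 genes lower by size in a line, COL1A1, COL1A2, COL3A1 and COL5A2 had no window. Sequence is shown for the others, COL12A1, COL11A1 and COL4A1. For COL12A1 and COL11A1 these are the 250 bases before the start, on the gene's strand. COL4A1 and COL4A2 are transcribed away from each other, and the stretch shown is the 126 bases between their start sites, on the strand of COL4A2. Capitals mark matches on either strand to the GC box GGGCGG or the CCAAT box CCAAT.
COL12A1, chr6:75206054-75206303, minus strand: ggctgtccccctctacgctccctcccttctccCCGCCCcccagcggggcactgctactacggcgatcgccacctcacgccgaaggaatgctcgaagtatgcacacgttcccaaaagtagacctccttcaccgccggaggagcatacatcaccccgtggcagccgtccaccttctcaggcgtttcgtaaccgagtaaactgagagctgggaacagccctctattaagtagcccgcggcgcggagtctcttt
COL11A1, chr1:103108523-103108772, minus strand: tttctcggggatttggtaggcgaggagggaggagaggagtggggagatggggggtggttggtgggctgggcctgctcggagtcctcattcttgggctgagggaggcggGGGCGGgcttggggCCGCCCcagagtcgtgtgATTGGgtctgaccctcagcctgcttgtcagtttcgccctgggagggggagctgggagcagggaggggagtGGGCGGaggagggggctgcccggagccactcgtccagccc
COL4A1 and COL4A2, chr13:110307158-110307283, plus strand: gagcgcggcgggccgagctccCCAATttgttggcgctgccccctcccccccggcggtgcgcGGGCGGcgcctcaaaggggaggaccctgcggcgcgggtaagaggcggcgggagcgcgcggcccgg

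The COL12A1 stretch held 1 GC box, 213 bases before the start, and no CCAAT box. The COL11A1 stretch held 3 GC boxes, 137, 123 and 35 bases before the start, and 1 CCAAT box at 106 bases. The COL4A1 and COL4A2 stretch held 1 of each. Such a stretch lies before both genes, whose changes with OGE were -1.17 and -0.38 in U2-OS and -0.50 and -0.17 in HOS. None of the 3 stretches held a TATA box (TATAAA), an AP-1 element (TGANTCA) or an ATF4-type element (TGATGNAA), and no marked motifs overlapped. The shares over the full windows do not cover COL1A1, COL1A2, COL3A1 and COL5A2, which had none. Over the full windows, a GC box was found in 24 of 43 collagen windows, 55.8%, and in 15786 of all 35116 windows. A CCAAT box was found in 30.2% of the collagen windows and 34.6% of all, and a TATA box in 16.3% and 11.5%. The AP-1 and ATF4-type elements were each found in 1 collagen window, 2.33%, and in 7.71% and 3.62% of all windows. A match to these letters is a description and not a binding site.

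Between the lines, the collagen gene that differed most was COL1A2. It was at 4.38 in U2-OS and 7.53 in HOS with OGE, and at 4.46 in U2-OS and 8.78 in HOS without it. The differences, U2-OS minus HOS, were -3.15 with OGE and -4.32 without it. By the smaller of these, COL1A2 was 13th of the 351 genes lower by size in U2-OS in both states, and it was the only collagen among them. That is 1 of 31 collagen genes at the floor, or 3.23%, against 3.17% of all genes. With limma, the mean difference was -3.74 ± 0.32 (SE), with an adjusted p of 0.0355, lower in U2-OS in 2 of 2 states. No other collagen gene passed in limma, where 1.04% of all genes were lower and 0.885% higher in U2-OS. A second probe set that lists COL1A2 together with PNLIP lay between 1.35 and 1.66 on all arrays and was not used.

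COL1A1, the partner chain, was at 7.71 in U2-OS and 9.07 in HOS with OGE, and at 9.46 in U2-OS and 10.01 in HOS without it, differences of -1.36 and -0.55. Both differences had the same sign as those of COL1A2, and the one with OGE passed the size threshold.

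Other collagen genes passed the size threshold in 1 of the 2 states, and the difference between states was not tested. With OGE, 4 of 32 collagen genes were lower in U2-OS, against 6.24% of all genes. No collagen gene was higher in U2-OS with OGE, against 4.89% of all genes. The lower ones were COL1A2, COL1A1, COL3A1, with a difference of -1.69, and COL5A2, with -1.42. Without OGE, COL3A1 differed by -0.83 and COL5A2 by -0.46. The comparisons with and without OGE use different arrays. Without OGE, COL11A1 was at 5.28 in U2-OS and 3.86 in HOS, and COL6A3 at 6.42 in U2-OS and 5.29 in HOS, differences of 1.42 and 1.13. They were the 2 collagen genes of 31 called higher in U2-OS in that state, against 8.26% of all genes. COL1A2 was the 1 called lower, against 5.64% of all genes. With OGE these differences were 0.41 and 0.63. For COL3A1 and COL6A3 the limma adjusted p of the line difference was 0.0939 and 0.111, and for COL11A1 0.187.

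COL4A2, COL6A1 and COL6A2 had differences above 0 in both states, none past the size threshold. COL4A2 differed by 0.39 with OGE and 0.60 without it, COL6A1 by 0.27 and 0.62, and COL6A2 by 0.34 and 0.28. COL4A1 differed by -0.30 with OGE and 0.37 without it, and COL4A3 by -0.44 and 0.02. COL12A1, the gene with the most negative OGE change, differed by -0.68 with OGE and 0.16 without it. Median differences over the 28 genes were -0.11 in each state, against -0.04 with OGE and -0.01 without it over all genes at that level.

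**Figure D3:**
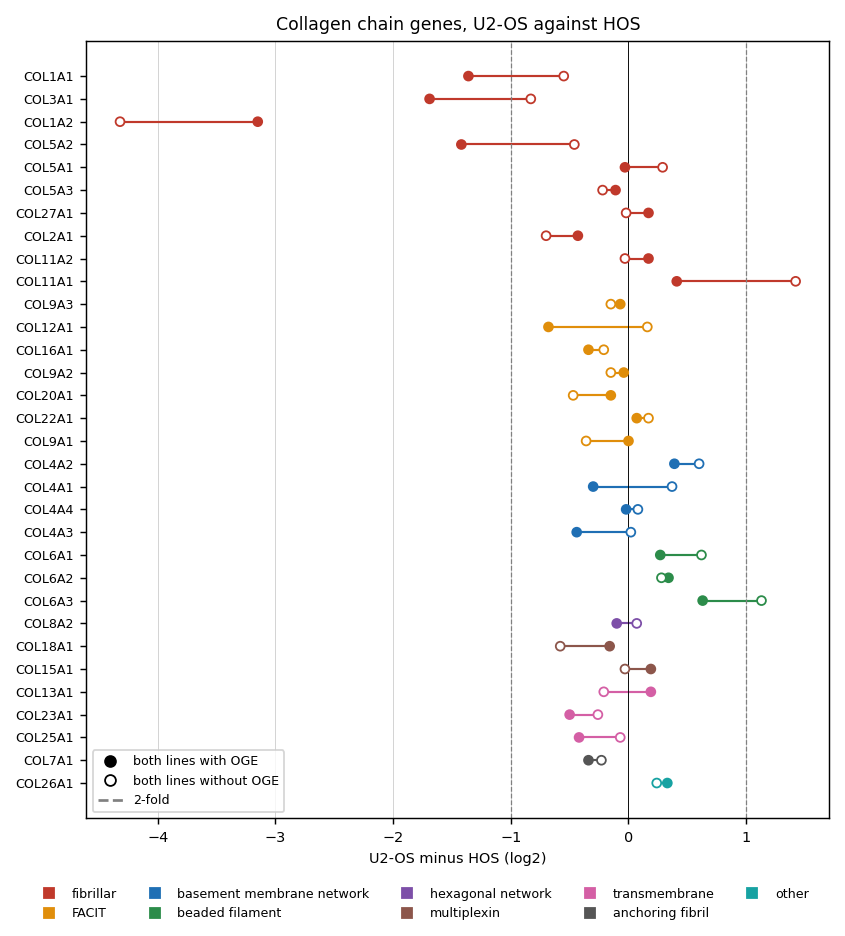
U2-OS minus HOS (log2) for the 32 collagen genes at or above the array median on at least 1 array, with filled points for the arrays with OGE and open points for those without it. COL1A2 stands apart at -3.15 and -4.32, COL1A1, COL3A1 and COL5A2 pass -1 with OGE alone, and COL11A1 and COL6A3 pass 1 without OGE alone.

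The size of the OGE change was larger in U2-OS for COL5A2, COL3A1, COL12A1 and COL1A1, and larger in HOS for COL1A2. By size, 7.88% of all genes were lower in U2-OS and 2.18% in HOS, so larger falls in U2-OS were not confined to collagens. The change in U2-OS minus that in HOS was -0.96 for COL5A2, -0.86 for COL3A1, -0.84 for COL12A1 and -0.81 for COL1A1. It was -1.01 for COL11A1, -0.67 for COL4A1 and 1.17 for COL1A2. With 1 array per group the design leaves no residual for this difference, and it was not tested.

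Genes that modify, export, process and bind collagen were mostly not called by size. Of 47 listed, 44 were measured and 39 were at or above the array median on at least 1 array. In U2-OS 3 of the 44 were lower by size, where 7.88% of all genes at the floor were, and in HOS 1 was, where 2.18% were. These shares are near those of all genes, though the 44 include genes below the floor, which the rule cannot call. None of the 44 was higher in either line, where 2.94% of all genes at the floor were in U2-OS and 1.70% in HOS. The median change of the 39 was -0.09 in U2-OS and 0.02 in HOS. Limma called 0 of the 44 for OGE, with 4 lower and 2 higher at an unadjusted p under 0.05, against 8.52% and 5.67% of all genes.

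The prolyl and lysyl hydroxylases, which make the helix stable and ready for crosslinks, were listed with their partners CRTAP, P3H4 and PPIB, and none of these 13 genes was called by size. P3H2, a prolyl 3-hydroxylase, changed by -0.88 in U2-OS and -0.01 in HOS, and the lysyl hydroxylase PLOD1 by -0.52 and 0.52. PLOD3 changed by 0.42 and 0.22, and P4HB, the shared subunit of the prolyl 4-hydroxylases, by -0.42 and 0.07. The collagen chaperone SERPINH1, known as HSP47 and named after its values were seen, was at 7.95 with OGE and 7.94 without it in U2-OS, and at 7.01 with OGE and 7.08 without it in HOS. COLGALT1, which adds galactose to hydroxylysine, changed by 0.13 and 0.12.

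The export gene SEC23A was lower in both lines. SEC23A encodes an inner coat subunit of the COPII vesicles that carry procollagen out of the endoplasmic reticulum. It was at 5.80 with OGE and 7.44 without it in U2-OS, and at 6.51 with OGE and 7.55 without it in HOS, changes of -1.64 and -1.04. Its partner in that coat, the cargo-binding subunit SEC24D, changed by -0.74 and -0.40. MIA3 and MIA2, receptors that help load procollagen at export sites, were below the array median on every array and changed by -0.53 and 0.21 in U2-OS and by 0.16 and -0.45 in HOS.

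Among the enzymes that trim and crosslink collagen, ADAMTS3 and LOXL4 were lower by size in U2-OS. ADAMTS3, an aminopropeptidase of procollagen, was at 3.43 with OGE and 4.89 without it in U2-OS, and at 2.32 with OGE and 2.98 without it in HOS. LOXL4, a lysyl oxidase relative, was at 6.39 with OGE and 7.90 without it in U2-OS, and at 4.68 with OGE and 5.53 without it in HOS. The changes of LOXL4 were -1.51 and -0.85. LOX itself changed by -0.62 and -0.22, LOXL1 by -0.39 and -0.06, and LOXL2 by -0.66 and 0.19. The carboxypropeptidase BMP1 changed by -0.09 and -0.40, its relative TLL1 by -0.18 and -0.95, and the BMP1 enhancer PCOLCE by -0.48 and 0.06.

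Of the suppliers and receptors, PYCR1, which makes proline, was higher by 0.57 in U2-OS and 0.52 in HOS, below the size threshold. The collagen-binding integrin chain ITGA2 had changes of 0.54 and 0.60, DDR1 of 0.11 and 0.68 and the uptake receptor MRC2 of -0.55 and 0.31. Between the lines, limma called 3 of the 44 genes, P4HA2, LOXL4 and ITGA2, all higher in U2-OS, with adjusted p of 0.0434, 0.0417 and 0.0382, where 0.885% of all genes were higher. ITGA2 was at 5.31 in U2-OS and 3.45 in HOS with OGE, and at 4.77 in U2-OS and 2.85 in HOS without it.

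**Figure D4:**
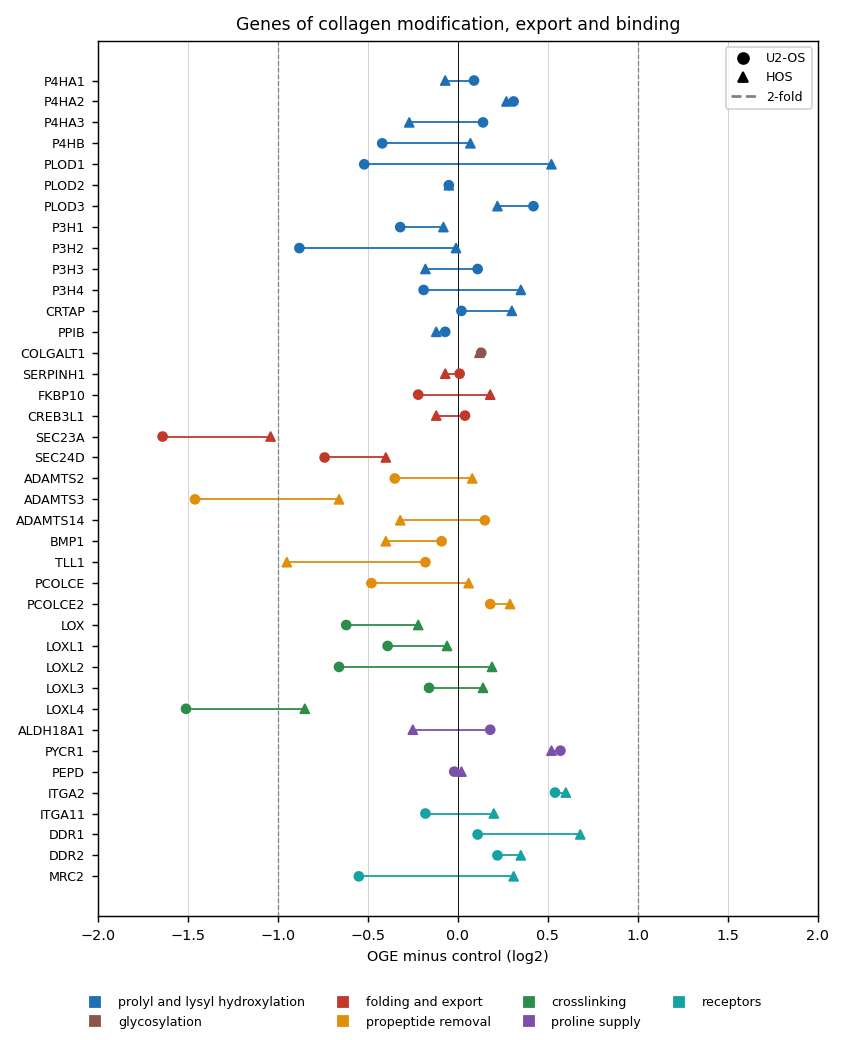
Change with OGE (log2) of the 39 genes of collagen modification, export and binding at or above the array median on at least 1 array, with circles for U2-OS, triangles for HOS and colours for the step. SEC23A passes -1 in both lines, ADAMTS3 and LOXL4 pass it in U2-OS, and the hydroxylases and their partners lie between -0.88 and 0.52.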

How the data were processed

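The deposited values are log2 expression per probe set, which the authors made with RMA, per the submitters' processing notes (version not given in the sources used here). The file does not state the log base. It was read from the values, which run between 0.16 and 13.41. RMA pulls low signals together and would hide a shift of all genes. Values carry 2 decimals. Per the labels' protocols, total RNA was amplified, labelled with biotin and hybridised.

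Of 33297 probe sets, 19460 have 1 symbol in the platform annotation of 2016, updated by gene ID to GRCh38.p14 RefSeq. This gave 18417 genes, with the highest-mean probe set for a gene with several. Limma 3.58.1 in R 4.3.3 was fitted to all genes with terms for OGE and for the line, with Benjamini-Hochberg adjustment at 0.05. Its p-values rest on a moderated residual, the difference between the lines in their OGE change. A response particular to 1 line counts there as error, and technical spread cannot be told apart from it. Array number limits the precision.

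The members and lists were chosen with earlier results of these data known. Named are all members at the array median on at least 1 array or called by size, and of each list of collagen making up to 4 genes by the size of their change. Markers were named from their lists. Alternatives were other thresholds, floors, normalizations, probe set choices and limma settings. Scan dates and batches are not given in these sources.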

Additional observations from a re-analysis of the deposited data

Results flagged for a closer look

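Of the 32 collagen genes at or above the array median on at least 1 array, 15 had OGE changes of opposite sign in the lines. Each of these changes was under 0.5 in size. The share of all genes with opposite signs was not computed, so the count cannot be read as particular to collagens. The change in U2-OS minus that in HOS was 0.40 for COL13A1, 0.42 for COL18A1, 0.32 for COL20A1, 0.36 for COL9A1, 0.27 for COL2A1, 0.22 for COL15A1, 0.19 for COL27A1 and 0.09 for COL26A1. It was -0.46 for COL4A3, -0.35 for COL6A1, -0.35 for COL25A1, -0.24 for COL23A1, -0.13 for COL16A1, -0.11 for COL7A1 and -0.10 for COL22A1. These differences were not tested, and with 1 array per group a change of sign at this size has no replicate check.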

How the results depend on the processing

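With no floor, quantile normalization, cyclic loess or the mean of probe sets, the genes called lower with OGE by size were the same 6 in U2-OS, 3 in HOS and, across lines, 2. The call of COL1A2 between the lines was also kept. When the floor was raised to the 75th percentile, COL11A1 lost its call in U2-OS. At 1.5-fold, 5 collagen genes were lower in HOS and 4 in both lines, with COL1A1 and COL5A2 added, and between the lines 2 were lower and 1 higher in U2-OS. At 3-fold, 0 were lower in HOS and 0 in both lines, and COL12A1, COL1A1, COL3A1 and COL5A2 were lower in U2-OS. These shifts follow from the threshold itself. The median change of the family was near 0 in all settings. In U2-OS it was 0.02, of the opposite sign, over all measured members, -0.0387 after quantile normalization and -0.0966 after cyclic loess. In HOS it was -0.0763 after quantile normalization, -0.0849 after cyclic loess and -0.07 with the mean of probe sets. For OGE, limma called 2 collagen genes after quantile normalization and 0 in the other settings. With the line term left out, the smallest adjusted p of a collagen gene was 0.761, against 0.228 with it. Between the lines it called 3 after quantile normalization, 2 after cyclic loess and 2 with trend and robust moderation, where 9.57%, 7.2% and 7.11% of all genes were called; the cause was not tested. COL1A2 was called in each of these. With 1 array per group there are no replicates to pair, and limma pairs the OGE contrast by line alone. Leaving out an array was not run, as it would leave no residual.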
